A study of Mus musculus with 10 samples.

Results

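Microglia are the resident immune cells of the brain. They arise from yolk sac progenitors, enter the neural tube early in embryonic life, and spread through the cortex while neurons are being born. Their identity is usually read from surface receptors that sense signals from neurons and damaged cells, from the C1q proteins that start the classical complement cascade, and from membrane adaptors that pass receptor signals to kinases inside the cell. The 10 genes described here were chosen by name as such markers, but with earlier results of these data known. The set holds the receptors Cx3cr1, Csf1r and P2ry12 and the C1q chains C1qa, C1qb and C1qc. It also holds the receptor Trem2 with the adaptors Tyrobp and Fcer1g, and Aif1, which encodes the calcium-binding protein IBA1. These members are 10 of the 22373 genes in the table. All 10 were among the 13484 genes that reached 32 footprints in at least 1 stage and were tested.

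Ribosome footprints, the mRNA fragments that ribosomes protect from nuclease, were counted in neocortex of wild-type CD-1 mice from 5 stages. Of these, E12.5 and E14 are the earlier embryonic days, E15.5 and then E17 the later ones, and P0 is the day of birth. Each stage had 2 libraries, and each library came from pooled brains of both sexes, so a replicate is a pool and not an animal. Values are CPM, counts relative to a library size scaled by TMM factors, and were not corrected for gene length, so each gene is compared with itself across stages. The tissue was not sorted, and a footprint count depends on how many cells of a type were present, on the mRNA in each cell and on its use by ribosomes, which cannot be told apart here.

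The libraries held between 7544404 and 36129988 counts, the fewest in P0 replicate 1. The 10 genes together took between 326 and 1306 of them, or 24.6 to 44.5 CPM before TMM scaling, so single genes rest on 14 to 343 footprints per library. Some libraries stood apart in a sum of markers of other blood cells, largely through 1 gene. The 14 markers of monocytes and granulocytes summed to 29.3 CPM in E12.5 replicate 1 and to 56.1 CPM in P0 replicate 2. The other libraries had 3.34 to 7.47 CPM. Plac8, a gene chosen after its values were seen, gave 438 of the 532 counts and 1947 of the 2351. In E12.5 replicate 1, S100a8 and S100a9 had 3 and 2 counts, so that library did not stand apart in these genes. The members did not stand high there, with a sum of 34.8 CPM in E12.5 replicate 1 and of 29.0 CPM in P0 replicate 2.

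The label was checked against 25 other genes used as microglia markers. Of these, 20 passed the filter. Genes that mark mature microglia were near the limit of detection: Tmem119 had 2 to 16 counts per library and P2ry13 2 to 16. Spi1, which encodes PU.1, a transcription factor that myeloid cells require, had 5 to 25. These genes were chosen after their values were seen. Most members had higher counts, but Csf1r, the C1q chains, Tyrobp, Fcer1g, Trem2, Aif1 and Cx3cr1 are also expressed by macrophages of the meninges and choroid plexus, so their footprints are not those of microglia alone. P2ry12 is known as the most selective of the 10 for microglia within the brain.

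Promoter sequences are shown because PU.1 and related ETS factors bind purine-rich DNA with a GGAA core, and because the 10 genes did not all follow the same course. RefSeq promoter windows of build GRCm38.p6 were matched for 7 of the 10 genes. A pair of short purine-rich forms was searched in the 250 bases upstream of each start, on both strands. The form GAGGAA was found in 23.3% of 32851 promoters and in 4 of the 7 members matched. The other form, which can overlap it, was AGGAAG, found in 29.5% of promoters and in 5 of the 7. Either form was found in 39.2% of promoters and in 6 of the 7. Capitals mark the matches within each 60-base stretch, on the strand of the gene.
C1qb, chr4:136886201-136886260 (- strand): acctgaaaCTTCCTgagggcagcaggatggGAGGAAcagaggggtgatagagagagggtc
C1qc, chr4:136893040-136893099 (- strand): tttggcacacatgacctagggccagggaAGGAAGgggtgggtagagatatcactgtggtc
Fcer1g, chr1:171234362-171234421 (- strand): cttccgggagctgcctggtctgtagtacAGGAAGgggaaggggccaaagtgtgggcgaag
Trem2, chr17:48346333-48346392 (+ strand): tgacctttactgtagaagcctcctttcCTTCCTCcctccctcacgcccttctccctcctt
P2ry12, chr3:59263006-59263065 (- strand): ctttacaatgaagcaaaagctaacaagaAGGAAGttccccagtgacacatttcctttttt
Aif1, chr17:35176053-35176112 (- strand): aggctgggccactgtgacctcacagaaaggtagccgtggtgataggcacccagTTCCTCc
C1qb, C1qc, Fcer1g and Trem2 were lower at E15.5 than at E14, P2ry12 and Aif1 were not called. Each stretch was chosen to hold a match, so their number says nothing of the genes' course. Neither form was found in the window of Cx3cr1. A match describes the sequence and does not show that a factor bound there.

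On the TMM scale the 10 genes were most abundant together at E14 and least at E15.5, whereas relative to total counts they were most abundant at E17. Their summed CPM was 34.8 and 37.8 in the E12.5 libraries, 41.6 and 41.4 in the E14 pair, 30.3 and 23.4 in the E15.5 pair, 40.7 and 35.6 in the E17 pair, and 35.5 and 29.0 in the P0 pair. Both E15.5 libraries lay below both E14 libraries and both E17 libraries. The means ± SD (n = 2 each) were 36.3 ± 2.14, 41.5 ± 0.157, 26.8 ± 4.88, 38.2 ± 3.57 and 32.2 ± 4.59 CPM. In falling order of the mean the stages were E14, E17, E12.5, P0 and E15.5. E17 overlapped E12.5, E12.5 overlapped P0 and P0 overlapped E15.5, so these neighbours did not differ beyond their spread, and E14 lay above all other libraries. Relative to total counts, the sums were 29.6 and 30.6 CPM in the E12.5 pair, 35.4 and 36.1 in the E14 pair, 32.1 and 24.6 in the E15.5 pair, 44.5 and 39.7 in the E17 pair, and 43.2 and 34.0 in the P0 pair. On that scale, too, both E15.5 libraries lay below both E14 libraries, but they overlapped the E12.5 pair.

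**Figure D1:**
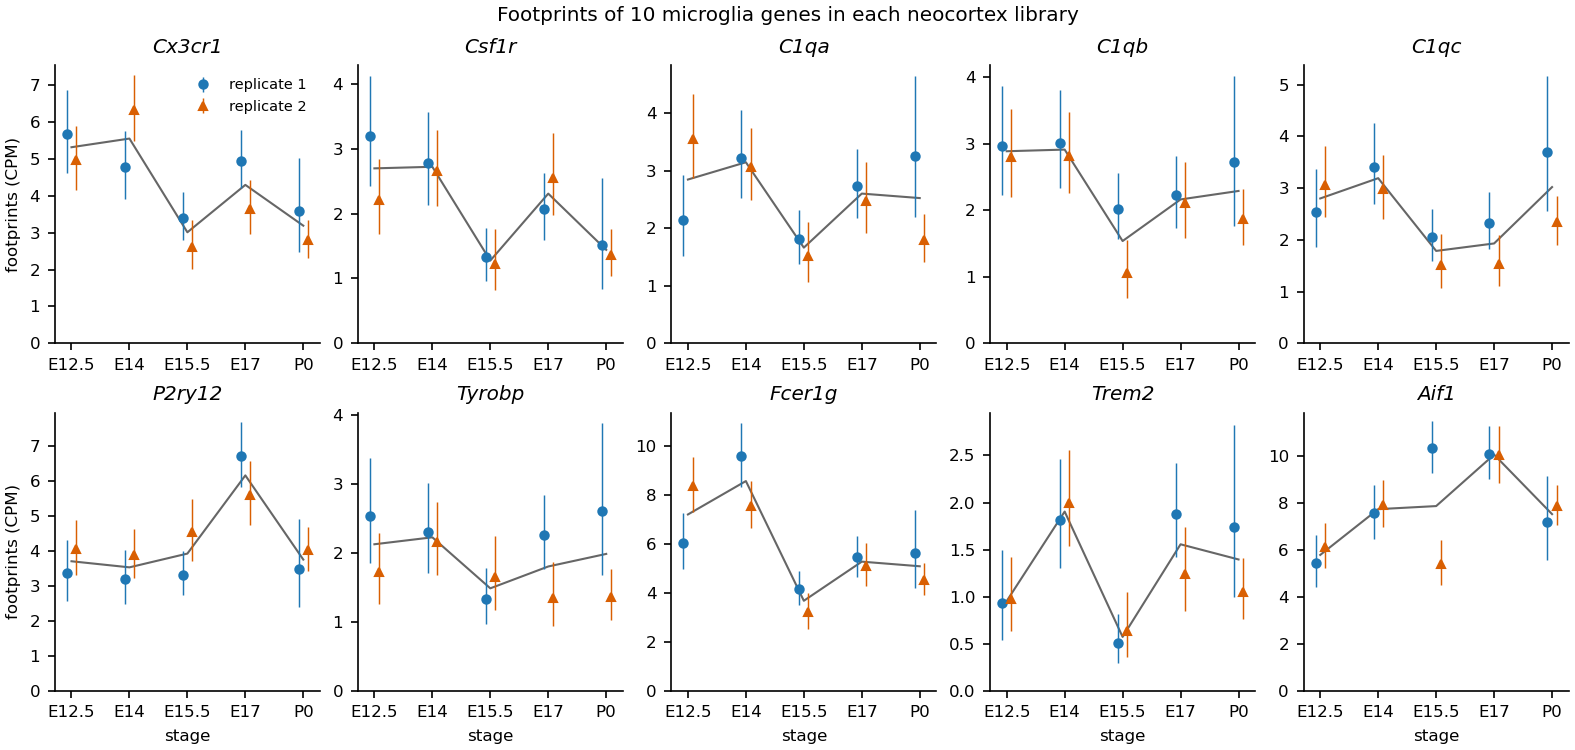
Footprints of each of the 10 genes, in CPM on a linear axis from 0, against stage. Circles are replicate 1, triangles replicate 2, bars the 95% Poisson interval of the count, which covers counting error only, and the line joins the stage means. Csf1r, Fcer1g and Trem2 fall between E14 and E15.5 in both libraries, while P2ry12 is highest at E17 and Aif1 differs between its E15.5 libraries (10.3 and 5.40 CPM).

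A moderated F test over the 5 stages (limma-voom, Benjamini-Hochberg adjusted over 13484 genes) called 5 of the 10 genes, beside 63.8% of all genes tested. They were Csf1r (adjusted p = 0.0081), Fcer1g (0.00824), Trem2 (0.0114), Cx3cr1 (0.0221) and P2ry12 (0.0333). The share of members called was thus not above that of all genes.

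The receptors that meet ligands from neurons fell between E14 and E15.5. Cx3cr1 (ENSMUSG00000052336) encodes the receptor for fractalkine, which neurons display. It had 5.67 and 4.97 CPM in the E12.5 pair, 4.77 and 6.34 in the E14 pair, 3.40 and 2.62 in the E15.5 pair, 4.95 and 3.64 in the E17 pair, and 3.59 and 2.79 in the P0 pair. Both libraries at E15.5 were lower than all 4 earlier libraries, and the P0 pair overlapped the E15.5 pair. The log2 fold change from E14 to E15.5 was -0.87 ± 0.23 (SE, adjusted p = 0.0178, limma-voom).

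Csf1r (ENSMUSG00000024621) encodes the receptor tyrosine kinase that microglia need for survival. It had 3.19 and 2.21 CPM in the E12.5 pair, 2.78 and 2.66 in the E14 pair, 1.33 and 1.22 in the E15.5 pair, 2.06 and 2.55 in the E17 pair, and 1.52 and 1.36 in the P0 pair. The E15.5 and P0 libraries formed the low values, and all 6 others were above them. Its step between E14 and E15.5 was -1.07 on the log2 scale (SE 0.22, adjusted p = 0.00692, limma-voom). The rise to E17 was 0.82 ± 0.23 (SE) and missed the threshold (adjusted p = 0.0608, limma-voom), and the difference from E17 to P0 was -0.71 ± 0.23 (adjusted p = 0.0647).

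Cx3cr1 and Csf1r were also the 2 members called lower at P0 than at E12.5, beside 32% of genes lower and 30.1% higher. The log2 fold changes were -0.82 ± 0.24 (SE, adjusted p = 0.0175, limma-voom) for Cx3cr1 and -0.89 ± 0.24 (SE, adjusted p = 0.0105) for Csf1r. Fcer1g missed the threshold at -0.57 ± 0.22 (adjusted p = 0.0512). Without P0 replicate 2 the adjusted p was 0.26 for Cx3cr1 and 0.181 for Csf1r and no member was called, and without E12.5 replicate 1 Cx3cr1 lost its call (0.0749). Without P0 replicate 1, the shallowest library, 4 members were called, C1qa and Fcer1g among them. Scaled by total counts only, neither gene was called, and P2ry12 and Aif1 were called higher instead. Under that scaling the median log2 change of all genes was 0.51.

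The C1q chains were all called lower at E15.5 than at E14. C1qa, C1qb and C1qc are neighbouring genes whose products assemble into 1 complex that tags material for removal and opens the classical pathway. Their summed CPM was 7.65 and 9.42 in the E12.5 pair, 9.63 and 8.87 in the E14 pair, 5.88 and 4.10 in the E15.5 pair, 7.27 and 6.12 in the E17 pair, and 9.68 and 5.99 in the P0 pair. The E15.5 libraries were the lowest of the 10. Over the libraries, C1qa made up 28.1% to 40.5% of the C1q counts, C1qb 25.8% to 38.8% and C1qc 25.2% to 39.0%, with 89 to 280 counts for the 3 chains in a library.

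C1qa (ENSMUSG00000036887) had 3.22 and 3.07 CPM in the E14 pair and 1.81 and 1.52 in the E15.5 pair, with a fitted log2 change of -0.90 ± 0.29 (SE, adjusted p = 0.0413, limma-voom). C1qb (ENSMUSG00000036905) had 3.004 and 2.82 CPM in the E14 pair and 2.02 and 1.06 in the E15.5 pair, with a change of -0.92 ± 0.27 (adjusted p = 0.0307). C1qc (ENSMUSG00000036896) had 3.40 and 2.98 CPM in the E14 pair and 2.05 and 1.52 in the E15.5 pair, with a change of -0.81 ± 0.27 (adjusted p = 0.0467). In each chain both E15.5 libraries were below both E14 libraries. These 3 calls lay close to the threshold: the call of C1qa or of C1qc was lost when any of 6 of the 10 libraries was left out, and that of C1qb for 5 of the 10, with adjusted p up to 0.176, 0.221 and 0.159.

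In the other 4 comparisons no C1q chain was called with all libraries. C1qa had 2.15 and 3.55 CPM in the E12.5 pair, 2.73 and 2.48 in the E17 pair, and 3.26 and 1.79 in the P0 pair. C1qb had 2.97 and 2.80 CPM in the E12.5 pair, 2.22 and 2.10 in the E17 pair, and 2.72 and 1.86 in the P0 pair. C1qc had 2.53 and 3.07 CPM in the E12.5 pair, 2.32 and 1.54 in the E17 pair, and 3.70 and 2.34 in the P0 pair. For all 3 chains P0 replicate 1 was above P0 replicate 2, and the P0 pair spanned the E17 pair for C1qa and C1qb.

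The largest log2 changes among the 10 genes were those of Trem2, a receptor for lipids and lipoproteins that signals through Tyrobp. Trem2 (ENSMUSG00000023992) had 17 and 26 counts in the E12.5 pair, 41 and 63 in the E14 pair, 17 and 15 in the E15.5 pair, 59 and 33 in the E17 pair, and 16 and 44 in the P0 pair. As CPM these were 0.935 and 0.972, 1.81 and 1.997, 0.512 and 0.633, 1.87 and 1.24, and 1.74 and 1.05. The E15.5 libraries were the lowest of all 10, and the E14, E17 and P0 libraries were all above E12.5. The step from E14 to E15.5 was -1.75 ± 0.33 on the log2 scale (SE, adjusted p = 0.00452, limma-voom), and the step from E15.5 to E17 was 1.44 ± 0.34 (adjusted p = 0.0373).

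Trem2 was the only member called higher from E15.5 to E17, where 5.61% of genes were called higher and 3.43% lower. All 10 members were fitted above 0 at that step, with a median of 0.51 against -4.6e-05 over all genes, and in 7 of them both E17 libraries lay above both E15.5 libraries, as they did for 34% of all genes tested. Leaving out any of the 8 libraries before P0 removed the Trem2 call (adjusted p 0.0629 to 0.287), while leaving out either P0 library raised the number called to 3. From E12.5 to E14 its change of 0.98 ± 0.30 was not called (adjusted p = 0.16).

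The adaptors carry ITAM motifs, which recruit the kinase Syk. Fcer1g (ENSMUSG00000058715) encodes the common gamma chain of Fc receptors. It had 6.05 and 8.38 CPM in the E12.5 pair, 9.59 and 7.57 in the E14 pair, 4.16 and 3.21 in the E15.5 pair, 5.46 and 5.11 in the E17 pair, and 5.66 and 4.53 in the P0 pair. Both E14 libraries were above all libraries from E15.5 on, and the E15.5 libraries were the lowest of the 10. Its step between E14 and E15.5 was -1.19 on the log2 scale (SE 0.21, adjusted p = 0.00341, limma-voom), and among the 10 genes this was the 1 call at that step that held under every alternative run.

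Tyrobp (ENSMUSG00000030579) encodes DAP12, the adaptor of Trem2. It had 2.53 and 1.72 CPM in the E12.5 pair, 2.30 and 2.16 in the E14 pair, 1.33 and 1.65 in the E15.5 pair, 2.25 and 1.35 in the E17 pair, and 2.61 and 1.36 in the P0 pair. The E15.5 libraries were below both E14 libraries, and within E12.5, E17 and P0 replicate 1 was above replicate 2. The step from E14 to E15.5 was -0.60 ± 0.33 (SE) and was not called (adjusted p = 0.195, limma-voom). With 24 to 71 counts per library, a change of this size could not be separated from the spread.

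P2ry12 (ENSMUSG00000036353) encodes a purinergic receptor that guides microglial processes toward nucleotides from injured cells. It had 3.36 and 4.04 CPM in the E12.5 pair, 3.18 and 3.87 in the E14 pair, 3.31 and 4.52 in the E15.5 pair, 6.70 and 5.59 in the E17 pair, and 3.48 and 4.01 in the P0 pair. The E17 libraries were the highest, and the other 8 overlapped across stages. From E14 to E15.5 the log2 change was 0.11 ± 0.20 (SE, adjusted p = 0.716, limma-voom). The rise to E17 was 0.68 ± 0.19 (adjusted p = 0.0608) and was not called.

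P2ry12 was the 1 member called at the last step, lower at P0 than at E17 with a log2 change of -0.67 ± 0.20 (SE, adjusted p = 0.0483, limma-voom), beside 11.1% of genes lower and 9.46% higher. The call held without P0 replicate 1 and was lost in each of the other 9 fits that left out a library (adjusted p 0.0524 to 0.247). P2ry12 lies within the span of another gene, Med12l, which had 25 to 106 counts in these libraries against 32 to 211 for P2ry12. Whether the counting used strand is not given in the sources used here, so reads of the 2 genes may not be fully separated.

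Aif1 (ENSMUSG00000024397) had replicates far apart at E15.5. It had 5.45 and 6.13 CPM in the E12.5 pair, 7.55 and 7.92 in the E14 pair, 10.3 and 5.40 in the E15.5 pair, 10.1 and 10.02 in the E17 pair, and 7.18 and 7.88 in the P0 pair. E15.5 replicate 1 held the highest and E15.5 replicate 2 the lowest value of all libraries, with 343 and 128 counts. With all 10 libraries on the TMM scale no comparison called it, while without either E15.5 library it was called higher at P0 than at E12.5 (adjusted p down to 0.036, limma-voom). The step from E14 to E15.5 was -0.02 ± 0.25 on the log2 scale (SE, adjusted p = 0.962, limma-voom).

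From E14 to E15.5, then, 7 of the 10 members were called lower and 0 higher, where 19.6% of all genes tested were called lower and 16.5% higher. The members' median was -0.89 against -0.0086 over all genes. For 8 of the 10, both E15.5 libraries lay below both E14 libraries, as they did for 38.9% of all genes tested. The number called was 3 without E14 replicate 2 and without either E15.5 library, and 4 when E14 replicate 1 was left out. edgeR called 5, DESeq2 called 4, and scaling by total counts called 3, which were Csf1r, Fcer1g and Trem2. Csf1r lost its call without E15.5 replicate 1 (adjusted p = 0.0514), as did Trem2 (0.0587), and Cx3cr1 lost it without E14 replicate 2 (0.127) or E15.5 replicate 2 (0.114).

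From E12.5 to E14 no member was called by limma-voom, edgeR or DESeq2, and 1 (Trem2) had an unadjusted p under 0.05 in limma-voom. At that step 0.497% of genes were called higher and 0.141% lower, and the members' median was 0.13. Trem2 and Aif1 had both E14 libraries above both E12.5 libraries, as did 26.9% of all genes tested.

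**Figure D2:**
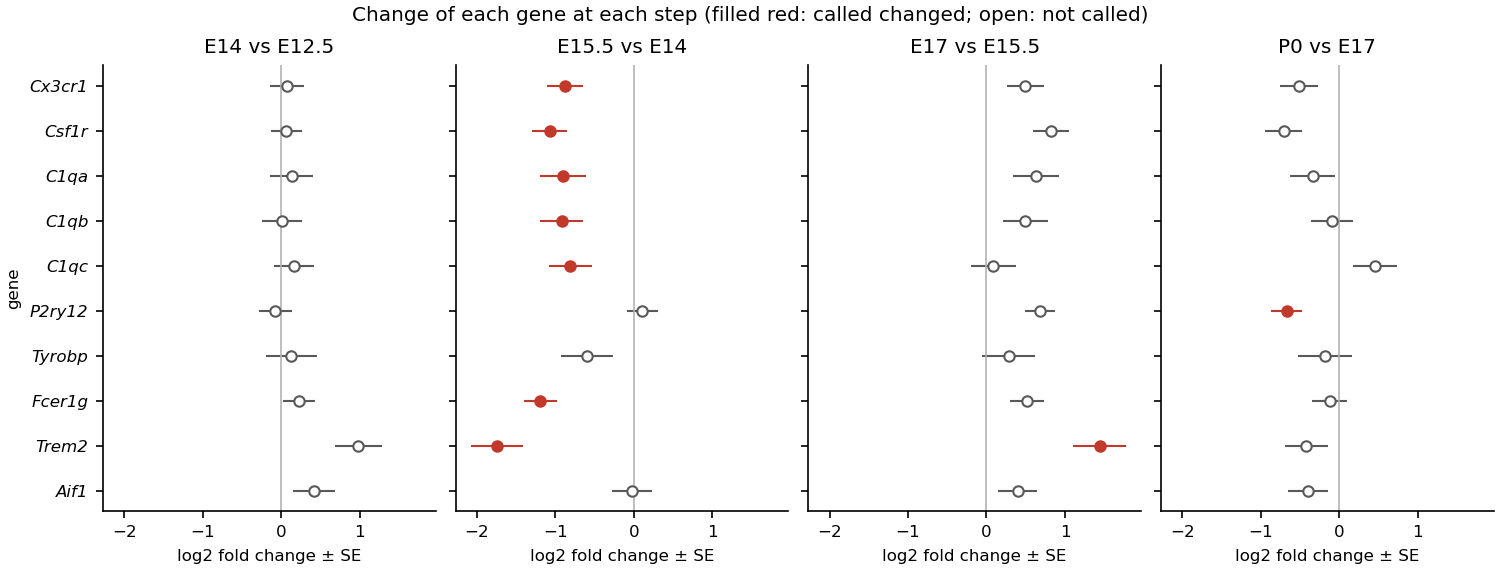
Fitted log2 fold change of each gene at the 4 steps between adjacent stages, later minus earlier, with bars of 1 SE. Filled red points were called (adjusted p under 0.05 and past the fold threshold) and open points were not. Calls gather at E15.5 against E14, where 7 genes lie between -1.75 and -0.81 and P2ry12 and Aif1 lie near 0.

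The make-up of the members' footprints shifted at the same step. Aif1 and P2ry12 were set apart because their fitted changes from E14 to E15.5 lay near 0. A rise in their joint share at that step follows from this choice and is not a separate result. Aif1 and P2ry12 together took 25.3% and 26.9% of the members' counts in the E12.5 pair, 25.8% and 28.5% in the E14 pair, 45.1% and 42.5% in the E15.5 pair, 41.3% and 43.8% in the E17 pair, and 30.1% and 41.0% in the P0 pair. The 4 earlier libraries were all below the 6 later ones, and P0 replicate 1 was the nearest to them. Fcer1g went from a mean of 20.7% at E14 to 13.7% at E15.5. Across the 10 libraries, the log profile of P2ry12 had a Pearson r of -0.12 with the mean of the other 9 members and that of Aif1 0.011, while the other 8 had r between 0.61 and 0.87. These correlations describe 10 libraries that share depth and scaling factors, and they rest on the same values as the steps above.

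**Figure D3:**
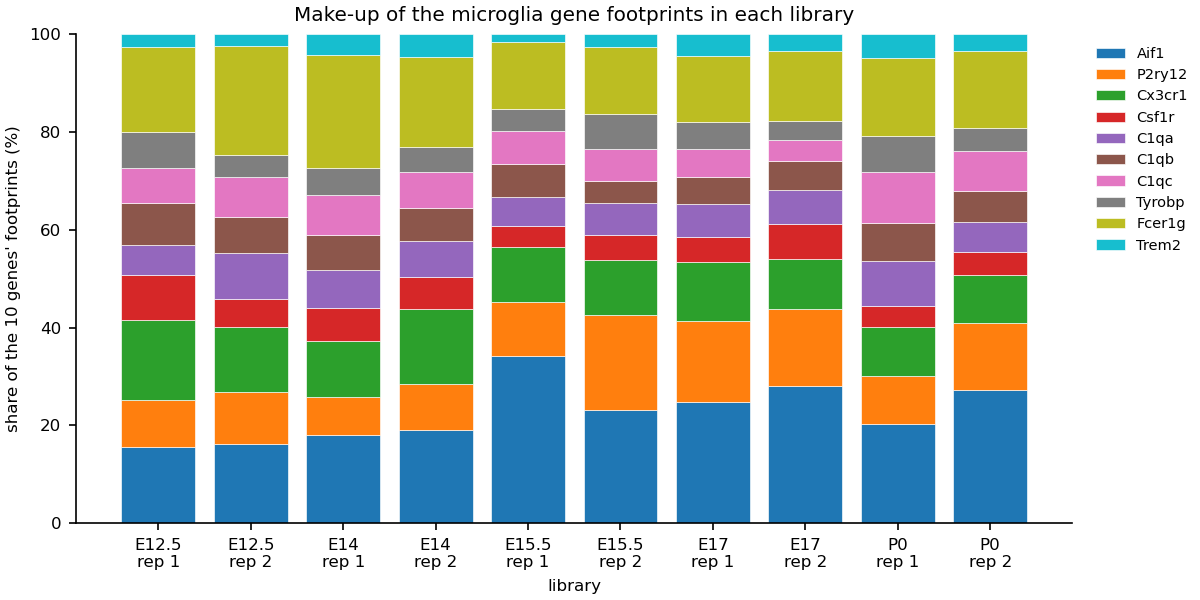
Share of each gene in the footprints of the 10 genes, in percent, for each library. The 2 lowest segments are Aif1 and P2ry12, set apart because they did not fall from E14 to E15.5. Together they reach 25.3% to 28.5% in the E12.5 and E14 libraries and 30.1% to 45.1% from E15.5 on. Counts were not corrected for length, so shares are to be compared between libraries and not between genes.

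Markers of tissue at the border of the cortex fell at the same step, at which 19.6% of all genes tested were called lower. Of 13 markers of border macrophages, which live in the meninges and choroid plexus, 7 passed the filter and 6 were called lower at E15.5 than at E14, with a median of -3.49. They include Pf4 (-4.76, 12.3 to 0.443 CPM), a chemokine, Lyve1 (-4.45), a hyaluronan receptor, F13a1 (-4.44), a transglutaminase, and Mrc1 (-3.49), the mannose receptor. Their summed level was 57.2 and 54.1 CPM in the E12.5 pair, 51.7 and 53.0 in the E14 pair, 5.88 and 6.08 in the E15.5 pair, 6.73 and 7.77 in the E17 pair, and 7.29 and 9.52 in the P0 pair. Dab2, which other cells also express, gave many of these counts. Without it the other 12 summed to 498 and 713 counts in the E14 pair and to 41 and 23 in the E15.5 pair, where 2 and 5 of them were at 0. Of the 7 that passed the filter, all but Dab2 did so only through their E12.5 or E14 counts. The number called lower and the median therefore lean toward a fall by selection, whereas the sums do not depend on the filter.

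The summed markers of border macrophages stood at 1.24 and 1.28 times the summed members at E14 and at 0.194 and 0.26 times at E15.5. These macrophages are known to express most of the 10 genes, and their part in the members' fall was not tested. Markers of the surrounding tissue moved the same way. All 10 markers of meningeal fibroblasts were called lower, from 319 and 321 CPM in the E14 pair to 31.3 and 33.1 in the E15.5 pair. All 9 tested of 10 choroid plexus markers were called lower, from 1163 and 1169 CPM to 14.4 and 11.6. Apart from Ttr, Folr1 and Sostdc1, these 9 passed the filter only through their E12.5 or E14 counts. Their number called lower thus leans toward a fall by selection as well.

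Vessel markers were low at E15.5 as well. Of 12 endothelial markers 11 passed the filter, of which 9 were called lower and 1 higher at E15.5 against E14. Their sum was 44.5 and 54.0 CPM in the E14 pair, 24.0 and 22.4 in the E15.5 pair, and 49.9 and 58.3 in the E17 pair. The border macrophage sum was 6.73 and 7.77 CPM at E17 and the choroid plexus sum 6.35 and 6.61 CPM. The part of vessels in the members' course was not tested.

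**Figure D4:**
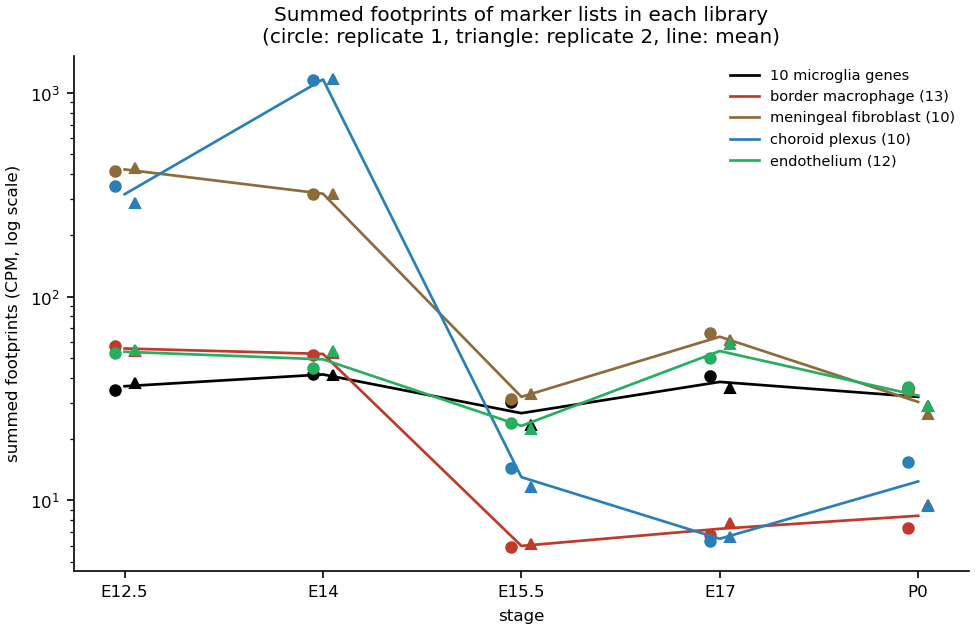
Summed footprints of the 10 microglia genes and of 4 marker lists in each library, in CPM on a log axis, against stage. Circles are replicate 1, triangles replicate 2, and lines join the stage means. From E14 to E15.5 the members went from a mean of 41.5 to 26.8 CPM, border macrophage markers from 52.4 to 5.98, meningeal fibroblast markers from 320 to 32.2, choroid plexus markers from 1166 to 13.01 and endothelial markers from 49.2 to 23.2.

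Of all genes tested, 19.6% were called lower and 16.5% higher from E14 to E15.5, and 32% and 30.1% from E12.5 to P0. Among the 20 tested of the 25 other microglia genes, 5 were called lower and 2 higher from E14 to E15.5, with a median of -0.42. From E12.5 to P0, 4 were lower and 2 higher, with a median of -0.25. The counts lower thus lay near or under the shares of all genes. The count lower from E14 to E15.5 was 2 without either E14 library. It was 1 when E15.5 replicate 1 was left out and 3 when replicate 2 of that stage was, and that from E12.5 to P0 was 2 without E12.5 replicate 2. Among those called at P0 against E12.5 were Sall1 (-3.27), Olfml3 (-2.11), whose call was lost without P0 replicate 2, and Adgre1 (-1.87), whose call was lost without P0 replicate 2, E12.5 replicate 2 or either E14 library. Adgre1 encodes the macrophage protein F4/80. Sall1 encodes a transcription factor that neural cells also make, and its 10 to 271 counts per library are not specific to microglia.

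The ligands of Cx3cr1 and Csf1r took opposite courses. Cx3cl1, which encodes fractalkine, rose from a mean of 4.91 CPM at E12.5 to 41.1 at P0, a log2 change of 3.01 ± 0.28 (SE, adjusted p = 3.86e-05, limma-voom). It had 76 and 151 counts in the E12.5 pair, 94 and 153 in the E14 pair, 223 and 272 in the E15.5 pair, 583 and 408 in the E17 pair, and 432 and 1472 in the P0 pair. At E15.5 against E14 Cx3cl1 was called higher (0.94 ± 0.29, adjusted p = 0.0375), a call lost without E15.5 replicate 2 or any library of E14 or E17.

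Csf1, a ligand of Csf1r, went the other way, from 4.82 CPM at E12.5 to 0.930 at P0 (-2.16 ± 0.42, adjusted p = 0.00236, limma-voom). Its step from E14 to E15.5 was not called (adjusted p = 0.443). Il34, the other ligand of Csf1r, had 0 to 13 counts per library and did not pass the filter, so its course was not detectable at this depth.

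Other partners of the members changed as well. Of all genes tested, 19.6% were called lower and 16.5% higher from E14 to E15.5, and 32% and 30.1% from E12.5 to P0. Of 11 tested of 13 ligands and partners, 6 were called lower and 2 higher from E14 to E15.5, and 6 lower and 4 higher from E12.5 to P0. The count lower from E14 to E15.5 was 3 when E14 replicate 2 was left out and 2 when E15.5 replicate 2 was, and the count higher was 1 without either E14 library, E15.5 replicate 2 or either E17 library. Apoe, a lipoprotein that Trem2 binds, had 191 CPM at E14 and 60.7 CPM at the next stage (-1.65, adjusted p = 7.63e-05, limma-voom) and stood at 270 CPM at P0. Adam17, a protease that sheds Trem2 and fractalkine, went from 14.8 CPM at E12.5 to 3.30 at P0 (-2.35). Nrros, which holds latent TGF-beta on microglia and macrophages, had 1.86 CPM at E14 and 0.304 CPM at the next stage (-2.59, adjusted p = 0.00263).

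Downstream of the members, the changes from E12.5 to P0 were mixed. Over that span 32% of all genes tested were called lower and 30.1% higher. Of the 31 complement genes 11 passed the filter, and 5 were called lower and 2 higher from E12.5 to P0. Serping1, which encodes the C1 inhibitor, was lower (-3.72), and Cr2, a complement receptor (4.26), and Csmd2 (1.97) were higher on few counts, the call of Csmd2 being lost, and the count higher thus 1, without either E12.5 library. Of 29 genes of ITAM signalling 19 passed, with 6 higher and 1 lower (3 lower without P0 replicate 2), among them the kinase subunits Pik3cd (2.76) and Pik3r1 (2.73) and the exchange factors Vav3 (2.01) and Vav2 (1.21), which neurons also express.

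Of 15 genes around Csf1r signalling 12 passed, with 4 higher and 4 lower from E12.5 to P0, including the adaptor Dok1 (-2.84). Both counts, like the 6 of 19 ITAM genes called higher, lay near the shares of all genes. Of 30 genes of phagocytosis and the lysosome 25 passed. From E14 to E15.5, 15 of these were called lower and 1 higher, beside 19.6% of all genes lower and 16.5% higher. From E15.5 to E17, 8 were higher and 0 lower, beside 5.61% of all genes higher and 3.43% lower. The count higher did not hold when any library of E15.5 or E17 was left out. From E12.5 to P0, 14 were lower and 6 higher, beside 32% and 30.1% of all genes. Those with the largest change from E12.5 to P0 were Axl (-3.22), a receptor that recognises dying cells, Lgals1 (-3.14), Npc2 (-2.31), which carries cholesterol out of lysosomes, and Cd63 (-2.26). Many cells of the tissue express these genes.

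Among 10792 non-member genes that averaged 50 counts or more, those whose log profile over the 10 libraries was among the most like the mean of the members were Sdf4 (Pearson r = 0.953), Pgrmc2 (0.926), Vwa1 (0.917) and Spg7 (0.916). The libraries share depth and scaling, and these are among the highest of many values.

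Red cell markers summed to a mean of 11410, 10549, 7164, 7256 and 1650 CPM over the 5 stages in order. The 14 neocortical markers summed to 1117, 1258, 1287, 1018 and 860 CPM at the 5 stages, and were thus present throughout. In the E14 pair they had 1282 and 1234 CPM, beside 1163 and 1169 CPM of choroid plexus markers. The sums do not show how pure the tissue was. Of monocyte and granulocyte markers 6 of 14 passed the filter, with S100a9 (4.29) and S100a8 (2.43) called higher at P0 than at E12.5. P0 replicate 2 held 96 and 61 of their counts, both calls were lost without it, and that of S100a9 was also lost without E12.5 replicate 2.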

How the data were processed

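The authors deposited footprint counts as whole numbers for each gene and library, not scaled to depth. Per the study's methods, monosome footprints were made with RNases T1 and A without cycloheximide, trimmed, freed of rRNA and tRNA with Bowtie 2 and aligned with STAR (2.7.0 in the submitters' processing notes) against GENCODE transcripts. Isoform-level estimates and tximport are named too, and reads with several best matches were kept at alignment. Whether this table comes from those estimates, how its counting shared such reads, and whether it used strand is not given in the sources used here. Genes that share sequence or overlap are therefore uncertain.

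In R 4.3.3, a gene was kept if the 2 libraries of some stage summed to 32 footprints or more. limma-voom (limma 3.58.1), which the study names, was fitted with TMM factors (edgeR 4.0.16), chosen here, to the 10 libraries with a coefficient for each stage. Two-sided p-values were adjusted by Benjamini-Hochberg over 13484 genes, and a call needed an adjusted p under 0.05 and at least 1.25-fold. Alternatives were edgeR's quasi-likelihood test, DESeq2 (1.42.0), other scalings, no filter, library weights, a replicate block and leaving out each library. The code was tested on simulated data. A member had 14 to 343 counts in a library, which limits the precision of its values. P-values measure the spread between 2 pools per stage.

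The members and lists were chosen with earlier results of these data known, so list counts are descriptions. Named are all members, the genes of each list called at P0 against E12.5 (at most 4 by size of change), ligands and partners, and the 5 most similar genes. Symbols came from the reference list of gene names, which held 22274 of the 22373 identifiers. Some genes that this rule would name are not reported here.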

Additional observations from a re-analysis of the deposited data

How the results depend on the processing

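The fall from E14 to E15.5 kept its direction in the members' median under all 17 alternatives (-1.06 to -0.59), while its number of calls moved. Against 7 called, DESeq2 called 4 and scaling by total counts 3, and leaving out a library gave 3 to 7. From E15.5 to E17, against 1 called, DESeq2, no filter on low counts and the replicate block called 0, total counts 2, library weights 5, and leaving out a library gave 0 to 3. From E17 to P0, against 1 called, edgeR, DESeq2, RLE factors, total counts, no filter, library weights and the replicate block all called 0, and leaving out a library gave 0 to 1. From E12.5 to P0, against 2 called, DESeq2 and library weights called 0, and leaving out a library gave 0 to 4. The F test called 5, and 4 to 8 when a library was left out. Fewer libraries and, without a filter, more genes tested enter those fits, and otherwise the cause was not tested.

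Total counts shifted the median log2 change of all genes by 0.29 from E14 to E15.5 and by 0.51 from E12.5 to P0, relative to which the members' medians were -0.88 and -0.42. Over all alternatives the members' median ranged from -0.59 to 0.10 from E12.5 to P0 and from -0.47 to 0.18 from E17 to P0, so its sign there is not settled. Replicate numbers did not pair the libraries: deviations of same-numbered libraries correlated between -0.63 and 0.43 over the 10 pairs of stages, above 0.1 in 5 of 10, and the block gave 6 members called from E14 to E15.5. Of 850 refits of a member in a comparison, 69 lost a call, 16 gained one and none reversed a called change. Over all genes tested, calls from E12.5 to E14 went from 86 to 388 with DESeq2, 655 with weights, 143 with total counts, 27 without a filter, 9 with the block and 0 to 1062 when a library was left out. From E15.5 to E17 they went from 1219 to 3717 with weights, 773 without a filter, 796 with the block and 0 to 2863 when a library was left out. From E17 to P0 they went from 2767 to 698 with weights and 552 to 4419 when a library was left out, and from E14 to E15.5 from 4868 to between 2739 and 6329 when a library was left out.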
